A study of Homo sapiens with 5 samples.

Results

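The p53 target genes described here are 10 genes that p53 is known to activate: MDM2, BBC3, EDA2R, TP53INP1, PHLDA3, SESN1, FDXR, TP53I3, RRM2B and ZMAT3. They were taken by symbol from the deposited tables and make up 10 of 26364 symbols. All 10 had a value above 0 in each of 5 libraries. The libraries came from SH-SY5Y, a human neuroblastoma cell line, and were made by sequencing the 3' ends of polyadenylated RNA, so that values need no correction for transcript length. Each group was 1 library: cells given siRNA against STAU1 (siSTAU1), siRNA against UPF1 (siUPF1) or control siRNA (siControl), and cells labelled Differentiation and Nondifferentiation. STAU1 is an RNA-binding protein that recruits the helicase UPF1 to mRNAs in Staufen-mediated decay, and the study asked which transcripts respond when either factor is depleted or when cells differentiate. All cultures had 10% serum and 1% antibiotics. The growth media labels list 50 μM retinoic acid for Differentiation and also for Nondifferentiation, and none for the 3 siRNA groups. No siRNA sequence, transfection time or differentiation time is stated in the labels used.

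p53 is a transcription factor that is held at low levels by MDM2, a ubiquitin ligase that is itself a p53 target, and that accumulates after DNA damage, nucleolar stress or oncogene activity. It binds DNA as a tetramer at sites made of a pair of 10-base elements, here called decamers, and switches on genes that stop the cell cycle, repair DNA, adjust metabolism or kill the cell.

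Promoter windows were read first because the members are grouped by a shared transcription factor. RefSeq promoter windows (GRCh38.p14; 250 bases before to 50 bases after a gene start) were at hand for 7 of the 10 members, as 15 windows of 300 bases, some of which overlap. The p53 decamer consensus is its own reverse complement, so 1 search covers both strands. An exact decamer was found for 2 of the 7 members, FDXR and SESN1, against 8.06% of the 27305 genes with a window. Genes with several windows had more places for a match. Counted by window, 2 of 15 held an exact decamer, against 6.63% of 35116 windows. Allowing 1 mismatch outside the fixed C and G, 5 of 7 members held at least 1 decamer, against 50.1% of all genes, a background so high that the looser match says little. The 3 windows below are shown because they hold the exact matches and the tandem element of the second MDM2 promoter. Capitals mark decamers with at most 1 mismatch.
MDM2, chr12:68808767-68809066, + strand: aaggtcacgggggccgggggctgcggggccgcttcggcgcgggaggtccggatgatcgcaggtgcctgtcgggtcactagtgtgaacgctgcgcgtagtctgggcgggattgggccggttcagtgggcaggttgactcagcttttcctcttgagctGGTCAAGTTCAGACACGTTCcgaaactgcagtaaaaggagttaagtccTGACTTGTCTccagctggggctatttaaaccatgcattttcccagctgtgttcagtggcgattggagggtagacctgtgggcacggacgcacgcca
FDXR, chr17:74872945-74873244, - strand: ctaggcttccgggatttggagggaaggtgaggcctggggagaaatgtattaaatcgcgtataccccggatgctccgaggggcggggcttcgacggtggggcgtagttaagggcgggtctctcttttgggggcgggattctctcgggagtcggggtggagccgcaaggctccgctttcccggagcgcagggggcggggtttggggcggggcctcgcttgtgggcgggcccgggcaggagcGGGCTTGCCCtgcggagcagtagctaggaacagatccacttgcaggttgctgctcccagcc
SESN1, chr6:109008939-109009238, - strand: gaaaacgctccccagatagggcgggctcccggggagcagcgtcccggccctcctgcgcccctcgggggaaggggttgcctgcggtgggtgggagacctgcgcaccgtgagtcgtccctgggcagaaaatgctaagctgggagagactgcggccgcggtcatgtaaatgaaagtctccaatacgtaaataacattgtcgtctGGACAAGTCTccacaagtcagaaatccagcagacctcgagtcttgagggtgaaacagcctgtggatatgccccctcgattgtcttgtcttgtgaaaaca
In the MDM2 window, 2 decamers lie end to end from base 157 to base 176, which is the arrangement of a full p53 site, and the next starts at base 205. The SESN1 match starts at base 202, and the FDXR match at base 240, counted from the first base of each window. The EDA2R and TP53I3 windows held no match, which says only that these letters are absent from those stretches.

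**Figure D1:**
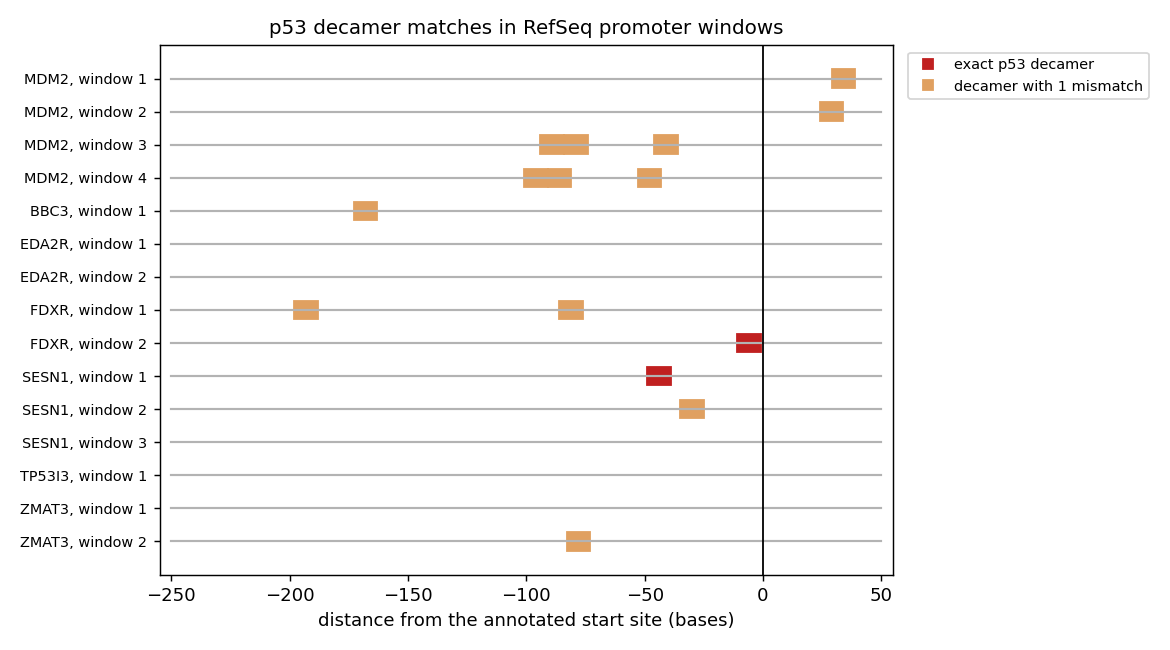
Positions of p53 decamers in the 15 RefSeq promoter windows of 7 p53 target genes, drawn as distance in bases from the annotated start site. Red boxes are exact decamers and orange boxes decamers with 1 mismatch. The 2 exact matches lie in FDXR window 2 and SESN1 window 1, and the decamers that abut lie in MDM2 windows 3 and 4, which overlap.

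Facts of the libraries that bear on the members are brief. Estimated depth, taken from the steps between low values, lay between 15700000 and 32000000 reads, highest in Differentiation. The siRNA targets fitted their labels: STAU1 had 11.34 in siSTAU1 against 12.87 in siControl (log2), and UPF1 had 9.20 in siUPF1 against 10.74 in siControl. Of 10 noradrenergic neuroblastoma markers, such as GATA3, none was listed at 0 in any library, and their median lay between 11.06 in Differentiation and 12.55 in siControl. Past 2-fold, 4 of 10 measured noradrenergic markers were lower in Differentiation than in Nondifferentiation, against 10.9% of all measured genes. In the same pair 1 was higher, against 10.4%. Of 9 measured, 2 were lower past 2-fold in siControl than in Nondifferentiation, against 0.573% of all measured genes. TH had 6.69 against 8.82, and DBH had 10.79 against 11.91. TH was under the floor, defined below, in siControl and, at 5.58, in Differentiation, and was measured through Nondifferentiation. CHGA, the 1 marker higher in Differentiation, was under it in Nondifferentiation, at 6.87. These marker counts are given as a description only. Of 12 epithelial markers, all had a value above 0 in siSTAU1, while 4 were listed at 0 in siUPF1 and 5 in siControl, with 2 in Differentiation against 6 in Nondifferentiation. KRT8 had 7.53 in siSTAU1, 4.23 in siUPF1 and 2.49 in siControl. Without GATA3, which belongs to both lists, the summed epithelial level was 10.13 in siSTAU1, 9.30 in siUPF1, 9.32 in siControl, 8.98 in Differentiation and 9.22 in Nondifferentiation (log2). CLDN7 alone had 8.96 in siSTAU1, 8.91 in siUPF1 and 9.16 in siControl. Of 10 mesenchymal markers, 5 were measured in siSTAU1, with 1 lower past 2-fold and 0 higher, against 0.106% and 0.0946% of all measured genes. In siUPF1 6 were measured, with 1 higher and 0 lower, against 0.401% and 0.142%. The median log2 folds of the measured markers were 0.06 and 0.19. TAGLN was the 1 past 2-fold in both, with 6.27 in siSTAU1, 9.41 in siUPF1 and 7.90 in siControl. In siSTAU1 it was under the floor and measured through siControl. In Differentiation 2 of 6 were higher and 2 lower, against 10.4% and 10.9%. Of 5 hepatocyte markers ALB had 7.05 in siSTAU1, 9.02 in siUPF1 and 6.36 in siControl, while at least 3 of the other 4 were listed at 0 in each library. The summed level of 6 blood markers was 8.05 in siSTAU1, 6.78 in siUPF1 and 6.72 in siControl. The part of these markers in the values below was not tested. In such bulk RNA, fewer cells of a type and less RNA per cell cannot be told apart.

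With 1 library per group there is no replicate and no test. Values are the deposited log2 values, folds are their differences, and the 95% intervals beside them cover counting error only, from estimated read numbers that ran from 160 reads (EDA2R in siControl) to 7246 reads (MDM2 in Differentiation). A gene counts as measured when the larger of its 2 values reached the median of all nonzero values, about 7.8, and as higher or lower past 2-fold. All 10 members were measured in every comparison. EDA2R, at 7.63, lay under that floor in siControl and was measured there through the other library.

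The 10 genes spanned a wide range of levels in a stable order at the ends. MDM2 had the highest value and BBC3 the next in all 5 libraries, and EDA2R the lowest. In Nondifferentiation, MDM2 stood at 12.56 and EDA2R at 8.50. The middle of the order changed between libraries. FDXR ranked 4 in siSTAU1 and 3 in siUPF1, against 6 in siControl. Several neighbours could not be ranked beyond counting error: FDXR and ZMAT3 were 0.03 apart in siUPF1 (counting SE 0.05), and RRM2B and SESN1 were 0.02 apart in Differentiation (counting SE 0.06).

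MDM2, which closes the feedback loop on p53, was among the steadiest members. It had 12.37 in siSTAU1, 12.20 in siUPF1 and 12.33 in siControl, with 12.11 in Differentiation against 12.56 in Nondifferentiation. The 3 siRNA libraries lay between the values of the differentiation pair, and the whole range was 1.37-fold. The log2 fold was 0.04 in siSTAU1 (-0.02 to 0.10), -0.12 in siUPF1 (-0.18 to -0.06) and -0.45 in Differentiation (-0.50 to -0.40). With a trend of folds with GC content removed, the siUPF1 fold was -0.06 and the Differentiation fold -0.35.

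Among the genes tied to cell death, BBC3 encodes PUMA, a BH3-only protein that triggers mitochondrial apoptosis. It had 11.76 in siSTAU1, 11.73 in siUPF1 and 11.42 in siControl, with 11.91 in Differentiation against 11.93 in Nondifferentiation, so siControl was the low library and the differentiation pair was level. With a trend of folds with GC content removed, its siUPF1 fold was 0.12, against 0.31 without. EDA2R, a receptor of the tumour necrosis factor receptor family that binds ectodysplasin A2, had 8.27 in siSTAU1, 8.33 in siUPF1 and 7.63 in siControl, with 8.27 in Differentiation against 8.50 in Nondifferentiation. Again siControl was lowest, with a log2 fold of 0.64 in siSTAU1 (0.35 to 0.93) and 0.70 in siUPF1 (0.42 to 0.97). TP53INP1, a stress-induced protein that takes part in p53 phosphorylation and autophagy, had 10.06 in siSTAU1, 10.30 in siUPF1 and 9.95 in siControl, with 11.19 in Differentiation against 10.23 in Nondifferentiation. It was the member with the highest log2 fold in Differentiation, 0.96 (0.87 to 1.06), just inside 2-fold.

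PHLDA3 and SESN1 act on growth signalling. PHLDA3, whose pleckstrin homology domain competes with AKT for membrane lipids, had 8.72 in siSTAU1, 9.67 in siUPF1 and 8.74 in siControl, with 9.05 in Differentiation against 10.02 in Nondifferentiation. It had the widest range of the 10 genes, 2.46-fold, with siSTAU1 and siControl level at the bottom. The log2 fold was -0.02 in siSTAU1 (-0.24 to 0.19), 0.93 in siUPF1 (0.74 to 1.11) and -0.97 in Differentiation (-1.10 to -0.84), and both of the larger folds fell short of 2-fold by less than their counting error. SESN1, a sestrin that restrains mTORC1, had 9.51 in siSTAU1, 9.02 in siUPF1 and 9.12 in siControl, with 9.59 in Differentiation against 9.73 in Nondifferentiation. Its siSTAU1 fold was 0.39 (0.21 to 0.57) and its siUPF1 fold -0.10 (-0.28 to 0.09), so SESN1 stood above siControl in siSTAU1 and PHLDA3 in siUPF1.

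FDXR and TP53I3 are oxidoreductases. FDXR, the mitochondrial ferredoxin reductase that feeds electrons to steroid hydroxylases and iron-sulphur cluster assembly, had 10.44 in siSTAU1, 10.87 in siUPF1 and 9.64 in siControl, with 10.03 in Differentiation against 10.88 in Nondifferentiation. The siUPF1 and Nondifferentiation values were level at the top and siControl was at the bottom. Against siControl it was the only member past 2-fold in a knockdown: the log2 fold was 1.22 in siUPF1 (1.09 to 1.35), or 2.33-fold higher, and 0.80 in siSTAU1 (0.66 to 0.94). TP53I3, also called PIG3, a quinone oxidoreductase, had 10.19 in siSTAU1, 10.57 in siUPF1 and 10.24 in siControl, with 9.95 in Differentiation against 9.46 in Nondifferentiation. Its log2 fold was 0.32 in siUPF1 (0.21 to 0.44), the same direction as FDXR, and -0.05 in siSTAU1 (-0.18 to 0.08). It was the only member with its lowest value in Nondifferentiation, as 14.4% of genes had.

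RRM2B, the p53-inducible small subunit of ribonucleotide reductase that supplies deoxynucleotides outside S phase, varied least. It had 9.36 in siSTAU1, 9.26 in siUPF1 and 9.26 in siControl, with 9.61 in Differentiation against 9.63 in Nondifferentiation, a range of 1.30-fold. The 3 siRNA libraries lay below the differentiation pair. ZMAT3, a zinc finger protein that binds RNA, had 10.57 in siSTAU1, 10.84 in siUPF1 and 10.33 in siControl, with 11.14 in Differentiation against 10.96 in Nondifferentiation. It too was lowest in siControl, with a log2 fold of 0.24 in siSTAU1 (0.12 to 0.36) and 0.51 in siUPF1 (0.40 to 0.62).

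**Figure D2:**
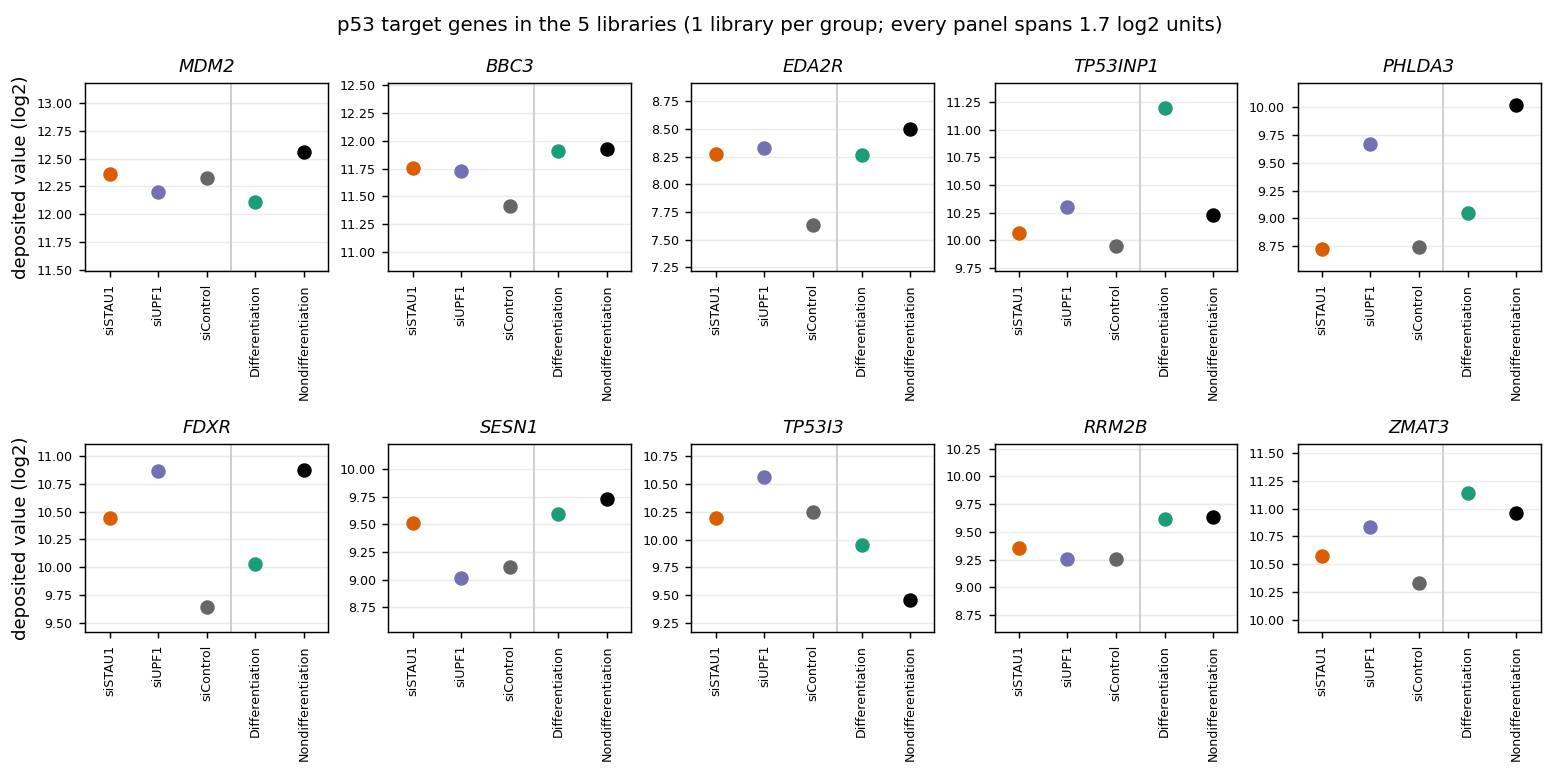
Deposited log2 values of the 10 p53 target genes, 1 point per library; every panel spans the same number of log2 units, so heights can be compared. The point for siControl is the lowest of its panel for BBC3, EDA2R, TP53INP1, FDXR, RRM2B and ZMAT3, and Nondifferentiation is the lowest for TP53I3 alone.

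Counting of overlapping genes could enter some of these values, because the sources used here do not say how strand was used. In GENCODE 29, 4 of the 10 members share the last 500 bases of their gene with another gene: MDM2 with CPM, TP53I3 with FAM228B and TP53INP1 with NDUFAF6, all on the opposite strand, and PHLDA3 with a noncoding RNA on the same strand that was not analysed here. CPM had at most 4.36 in any library, far under MDM2. FAM228B had 7.32 in siSTAU1, 7.77 in siUPF1 and 7.38 in siControl, with 7.88 in Differentiation against 6.75 in Nondifferentiation, so it too was lowest in Nondifferentiation. NDUFAF6 lay between 6.04 and 6.49. Reads of TP53I3 and FAM228B cannot be told apart with the sources at hand.

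After STAU1 knockdown the members differed little from siControl. Of 10 members, 0 were 2-fold higher and 0 were 2-fold lower, where 0.0946% of 8454 measured genes were higher and 0.106% lower. The median log2 fold of the members was 0.18, against 0.01 over all measured genes, and 8 of 10 folds were positive, against 50.7% of measured genes. FDXR and EDA2R passed 1.5-fold upward, which 1.02% of measured genes did, and 0 members passed it downward, which 1.29% did. Of 74 further p53 targets 41 were measured, and 0 were past 2-fold in either direction, with a median of 0.02. PHPT1, a phosphohistidine phosphatase, had the highest log2 fold of these, 0.60, ahead of CDKN1A, the cyclin-dependent kinase inhibitor p21, at 0.47 and APAF1, the apoptosome scaffold, at 0.40. CES2, FBXO22 and ARVCF had the lowest, -0.57, -0.41 and -0.39.

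After UPF1 knockdown 1 of 10 members, FDXR, was 2-fold higher and 0 were lower, where 0.401% of 8475 measured genes were higher and 0.142% lower. The median log2 fold of the members was 0.34, against -0.01 over all measured genes, and 8 of 10 folds were positive, against 47.8% of measured genes. MDM2 and SESN1 had negative folds, as 51.8% of measured genes did. FDXR, PHLDA3 and EDA2R passed 1.5-fold upward, which 3% of measured genes did, and 0 members passed it downward, which 1.56% did. Of the further targets 42 were measured, with a median of 0.10 and 0 past 2-fold. Of these 42, 27 had positive folds, against 47.8% of measured genes. At 1.5-fold, 6 of them were higher and 0 lower, against 3% and 1.56%. The solute carrier SLC12A4 had 0.99, CDKN1A 0.94 and the secreted stress factor GDF15 0.75, while FBXO22 had -0.37, the phosphatase PPM1D -0.35 and ARVCF -0.29. SLC12A4, at 7.23 in siControl, was measured through siUPF1.

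Both knockdown comparisons share siControl, and siControl was low for these genes. It held the lowest of the 5 values for 6 of 10 members, where it held the lowest for 16.3% of the 8306 genes whose mean reached the floor. For RRM2B that lowest place was no more than 0.002 below siUPF1. Nondifferentiation held the highest value for 7 of 10 members, against 14.1% of those genes. Set against Nondifferentiation, siControl had 2 of 10 members 2-fold lower, FDXR at -1.24 (-1.37 to -1.11) and PHLDA3 at -1.28 (-1.45 to -1.10), where 0.573% of 8547 measured genes were lower, and 0 of 10 higher, where 0.222% were. The median log2 fold of the members was -0.56, against 0.00 over all measured genes, and 9 of 10 folds were negative, against 49% of measured genes. TP53I3 was the exception, at 0.78 (0.64 to 0.93).

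The gap between those reference libraries exceeded the difference of siSTAU1 from siControl for 10 of 10 members, against 56.7% of genes, and that of siUPF1 for 9 of 10, against 51.1% of genes. RRM2B and the other members with small knockdown folds count here as well as FDXR. The siSTAU1 value lay between siControl and Nondifferentiation for 9 of 10 members, against 38.3% of genes, and the siUPF1 value for 6 of 10, against 33.7% of genes. Such counts follow in part from the large gap of the members between the references. The genes set beside them were not matched for the size of that gap. With Nondifferentiation in place of siControl, the median of the members was -0.22 in siSTAU1 and -0.19 in siUPF1, and FDXR had -0.44 and -0.01 there. PHLDA3 was then the 1 member past 2-fold in siSTAU1, at -1.30, where 0.281% of measured genes were higher and 0.631% lower. TP53I3 was the 1 in siUPF1, at 1.11, where 0.537% were higher and 0.829% lower. Nondifferentiation differs from the siRNA libraries in transfection and in the retinoic acid listed on its label, and these cannot be told apart from a difference between single libraries.

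**Figure D3:**
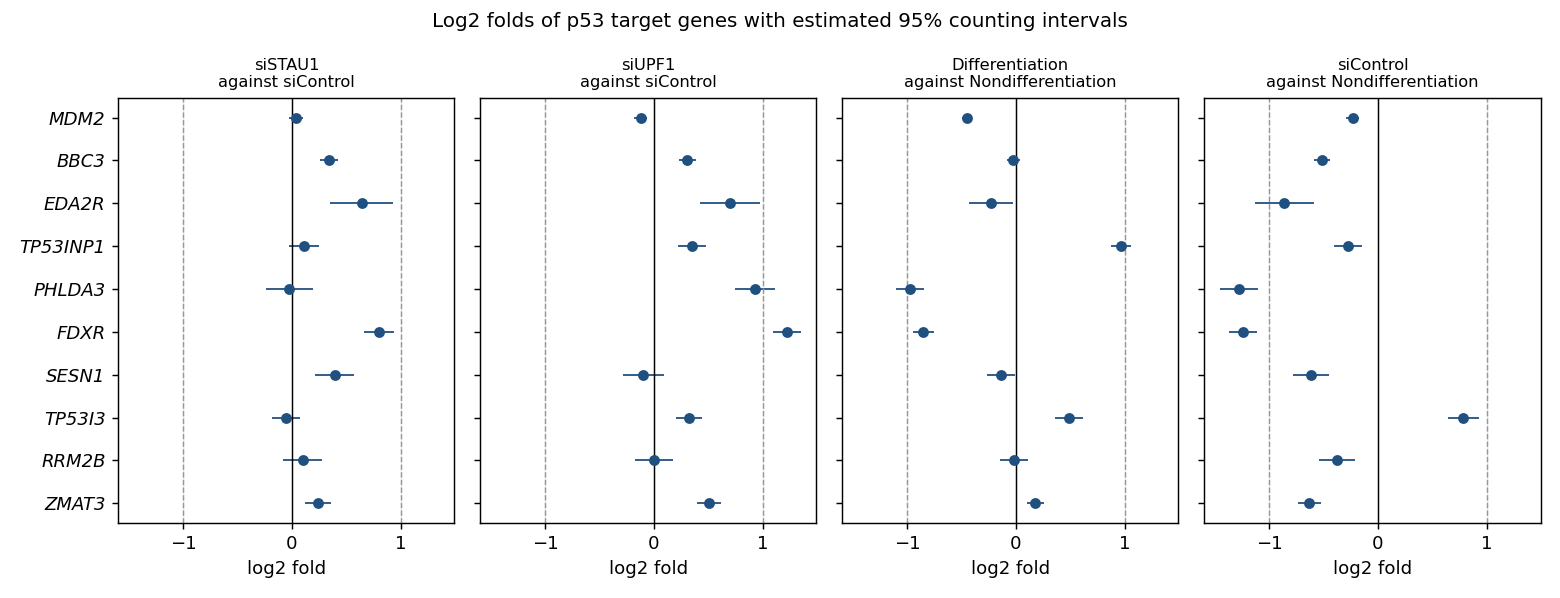
Log2 folds of the 10 p53 target genes in 4 comparisons, with estimated 95% counting intervals as bars and dashed lines at 2-fold. In the panel of siControl against Nondifferentiation 9 of 10 points lie left of 0, and in both knockdown panels 8 of 10 lie right of 0; these 3 panels share siControl.

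CDKN1A and GDF15 also had lower values in siControl than in Nondifferentiation. CDKN1A had 10.30 in siSTAU1, 10.77 in siUPF1 and 9.83 in siControl, with 10.89 in Differentiation against 11.66 in Nondifferentiation. GDF15 had 8.73 in siSTAU1, 9.34 in siUPF1 and 8.59 in siControl, with 10.64 in Differentiation against 9.84 in Nondifferentiation. In siControl against Nondifferentiation, CDKN1A had -1.83, GDF15 -1.25 and the DNA repair factor DDB2 -0.65, the lowest log2 folds of 41 measured further targets, of which 28 were negative, where 49% of all measured genes were, with a median of -0.19. CES2, MAST4 and PLTP had the highest, 0.35, 0.33 and 0.30.

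MDM4, the MDM2 relative that blocks p53 activity, had 13.59 in siSTAU1, 13.70 in siUPF1 and 13.39 in siControl, with 13.67 in Differentiation against 13.57 in Nondifferentiation. Of 30 regulators 26 were measured in siSTAU1 and 25 in siUPF1, with medians of -0.05 and -0.09 and 0 past 2-fold. The nucleolar protein NPM1 was among the lowest of them in both, at -0.39 and -0.48, and both folds share siControl. NPM1 had 14.25 in siSTAU1, 14.15 in siUPF1 and 14.64 in siControl. Since siControl against Nondifferentiation gave 0.49 as well, siControl was the high library of these 4. The kinase HIPK2 had -0.45 and the checkpoint kinase CHEK2 0.49 in siSTAU1, and the acetyltransferase EP300 had -0.55 and MDM4 0.31 in siUPF1.

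In the deposited values, the members differed between Differentiation and Nondifferentiation no more often than measured genes in general. Of 10 members, 0 were 2-fold higher and 0 were 2-fold lower than in Nondifferentiation, where 10.4% of 9064 measured genes were higher and 10.9% lower, and the median log2 fold was -0.08, against 0.02 over all measured genes. TP53INP1 at 0.96 and TP53I3 at 0.49 (0.36 to 0.62) were the highest, followed by ZMAT3 at 0.18 (0.10 to 0.26). PHLDA3 at -0.97, FDXR at -0.85 (-0.95 to -0.76) and MDM2 at -0.45 were the lowest. At 1.5-fold, 1 member was higher and 2 were lower, where 21.8% and 21.7% of measured genes were. BBC3 at -0.02 (-0.08 to 0.03) and RRM2B at -0.02 (-0.15 to 0.11) had intervals that included 0. That does not hold once a trend of the folds with GC content is removed, which gave -0.31 for BBC3 (counting half-width 0.059) and 0.15 for RRM2B (counting half-width 0.13). PHLDA3, FDXR and TP53INP1 each passed 2-fold with the same trend removed, at -1.12, -1.03 and 1.09. The share of all measured genes past 2-fold with that trend removed was not computed.

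Of the further targets 46 were measured in this pair. Of these, 8 (17.4%) were 2-fold higher and 6 (13.0%) lower, against 10.4% and 10.9% of all measured genes. Some were measured through the library where they were high, so these counts are given as a description only. PLK2, a polo-like kinase, had 10.94 in Differentiation against 7.22 in Nondifferentiation, the calcium channel subunit ORAI3 had 9.09 against 5.75, and the lipid kinase DGKA had 9.48 against 7.57. Each of these 3 was under the floor in Nondifferentiation and entered through Differentiation, as did SLC12A4, with 8.56 against 7.51. At the other end PCNA, the sliding clamp of DNA replication, had a log2 fold of -1.96, the nuclease AEN -1.67 and the pantothenate kinase PANK1 -1.64. PANK1, at 7.49, was under the floor in Differentiation. GDF15 had 0.80 and CDKN1A -0.77, so these targets lay on opposite sides of 0. Among 26 measured regulators 0 were 2-fold higher and 3 (11.5%) were lower, against 10.4% and 10.9% of all measured genes. The 3 were CHEK2 at -2.28, CHEK1 at -1.38 and NPM1, which had 12.81 in Differentiation against 14.15 in Nondifferentiation. CHEK2, at 7.02, was under the floor in Differentiation and was measured through Nondifferentiation. TRIM24, CUL9 and CREBBP had the highest, 0.94, 0.90 and 0.68.

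**Figure D4:**
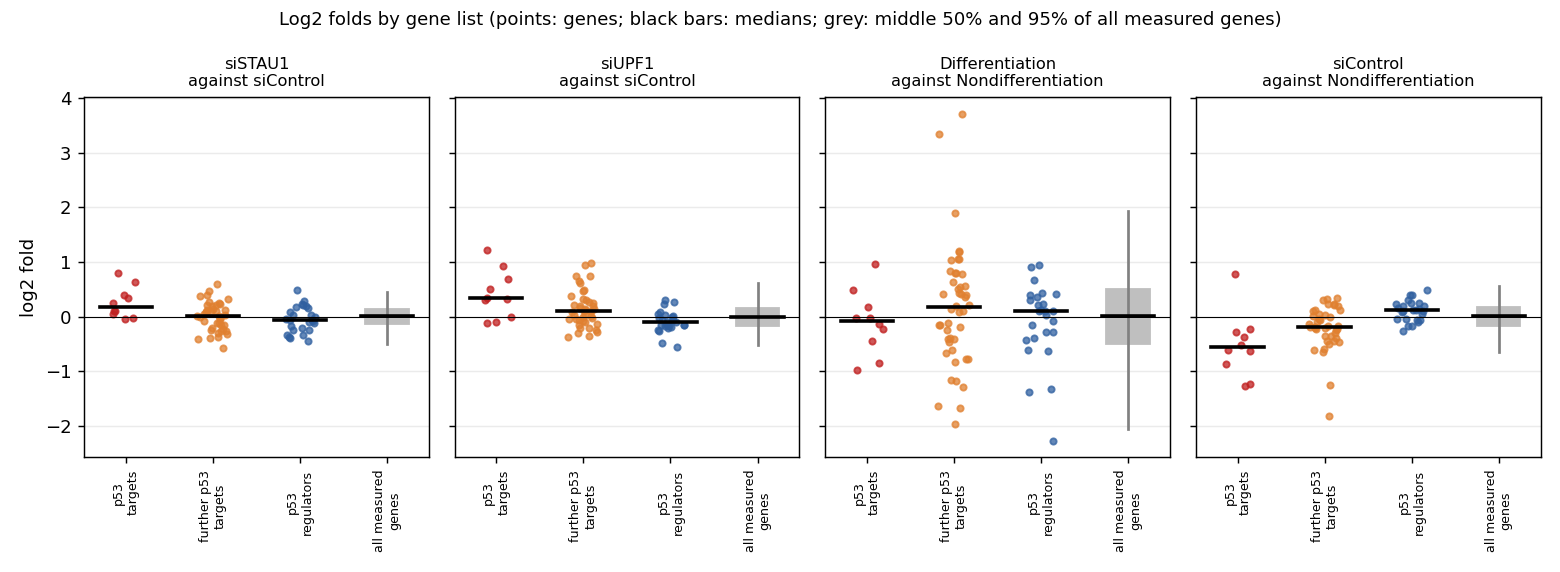
Log2 folds of measured genes of 3 lists in 4 comparisons, with black bars at the medians and, in grey, the middle 50% and 95% of all measured genes. The members' median lies at 0.18 in siSTAU1, 0.34 in siUPF1, -0.08 in Differentiation and -0.56 in siControl against Nondifferentiation.

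The members did not share 1 pattern over the 5 libraries. With each gene centred on its own mean, BBC3 lay closest to the members' median pattern, at a root mean square difference of 0.04 log2 units, and EDA2R followed at 0.11. TP53I3 at 0.51, PHLDA3 at 0.42 and TP53INP1 at 0.39 lay farthest from it. Among 8296 other genes, whose median difference was 0.32, VOPP1 at 0.03, CLDND1 at 0.04 and FMN1 at 0.05 were nearest to that pattern. VOPP1, for example, had 12.22 in siSTAU1, 12.29 in siUPF1 and 11.90 in siControl, with 12.32 in Differentiation against 12.43 in Nondifferentiation. For MDM2 alone, TMEM33, PLEKHA8 and SSR1 were nearest, at 0.01, 0.02 and 0.03. With 5 libraries, the likeness is a description only.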

How the data were processed

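The 5 libraries of SH-SY5Y RNA, 1 per group, were grouped by sample title. Per the labels' protocols, each was made with a Lexogen QuantSeq kit from 500 ng RNA. The deposited values are log2 expression values per gene symbol. The submitters' processing notes name Bowtie2, edgeR and hg19, with no role. The sources used here do not state the counting, the annotation or the use of strand. The deposited log2 values have the same maximum, 18.01, in all libraries, and 100% of nonzero linear values are multiples of 1/5 within 0.001, as quantile normalization over 5 libraries gives; this is inferred from the values. Such scaling removes differences in total RNA. Entries at exactly 0 are called listed at 0.

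Reads per value were estimated from the slope of the 50 lowest distinct values (0.610 to 1.24 linear units per read), and the counting SE of a fold from those reads. PCR duplicates and culture variation are not covered. Called genes passed 2-fold. The fold and calling steps were tested on simulated data. GC content came from the longest GENCODE 29 transcript, for 95.9% of measured genes. Promoter sequences are RefSeq's (GRCh38.p14), another build than hg19; the search with 1 mismatch was added after the exact search. Named genes were the members, MDM4, CDKN1A, the siRNA targets, the 3 highest and 3 lowest measured folds of the further-target and regulator lists in each comparison, and the 3 nearest patterns; cell type markers, FAS, GDF15 in Differentiation, TP63, TP73, genes of the DREAM list and genes that overlap members were named after their values were seen. Some genes of these rules and lists are not reported here. The members and lists were chosen with earlier results of these data known. Python 3.11.15, numpy 2.4.6, pandas 2.3.3 and matplotlib 3.10.9 were used.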

Additional observations from a re-analysis of the deposited data

How the results depend on the processing

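The reference library decided the sign of the members' median in both knockdowns, but not that of every member. With either reference, MDM2 and SESN1 were negative and TP53I3 and TP53INP1 positive in siUPF1. PHLDA3 was negative in siSTAU1 with both. Not all of these signs are clear. Against siControl, the intervals of SESN1 in siUPF1 (-0.28 to 0.09) and PHLDA3 in siSTAU1 (-0.24 to 0.19) included 0. TP53INP1 in siUPF1 had only 0.07 against Nondifferentiation. With Nondifferentiation in place of siControl, the members' median became -0.22 in siSTAU1 and -0.19 in siUPF1, FDXR in siUPF1 became -0.014, and 1 member passed 2-fold in siSTAU1 where none did against siControl. The 1.5-fold threshold gave 2 members in siSTAU1, 3 in siUPF1 and 3 in Differentiation, by its own construction. Removing the GC trend gave 3 members past 2-fold in Differentiation in place of 0. The share of all measured genes past 2-fold with that trend removed was not computed, so this count has no background. The cause was not tested beyond the correlation of folds with GC content, which was 0.11 in Differentiation and 0.27 in siUPF1 (Pearson r across genes, which are not independent). Removing the GC trend moved 10 of 40 single folds by more than their counting error. Of these, 7 were in Differentiation, 2 in siUPF1 and 1 in siControl against Nondifferentiation, while all 10 siSTAU1 folds stayed within it. Centring on the median of all genes and a pseudocount of 8 moved 0 of 40 each, and both other floors on low values gave the same medians and counts. With 1 library per group no library could be left out. Depth limits EDA2R most, where counting error alone spans 0.35 to 0.93 for the siSTAU1 fold.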

Other observations

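Cell cycle genes that p53 is known to repress through p21 and the DREAM complex lay lower in Differentiation, as CDKN1A did, but not in siControl. All 12 genes of that list were 2-fold lower in Differentiation than in Nondifferentiation, where 10.9% of all measured genes were. Their median log2 fold was -2.59, from CDC20 at -3.93 to MKI67 at -1.82, while CDKN1A had -0.77. CDC20, CCNB1, CCNB2, PLK1, BUB1, CDC25C and CCNA2 were under the floor in Differentiation and were measured through Nondifferentiation. The count is therefore given as a description only. In siSTAU1 and siUPF1 the medians of the 12 genes were -0.00 and 0.05, with 0 of 12 past 2-fold. In siControl against Nondifferentiation, where CDKN1A had -1.83, 11 of 12 were positive, where 50.7% of all measured genes were, with a median of 0.25 and 0 past 2-fold.

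The p53 relatives differed in whether they were seen at all. TP73 had 12.16 in siSTAU1, 12.39 in siUPF1 and 12.13 in siControl, with 12.22 in Differentiation against 12.30 in Nondifferentiation. TP63 was listed at 0 in all 5 libraries. FAS, the death receptor and p53 target, was under the floor throughout, with 3.17 in siSTAU1, 5.29 in siUPF1 and 5.04 in siControl, with 4.28 in Differentiation against 6.46 in Nondifferentiation.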
